A study of Mus musculus with 12 samples.

Results

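The report describes 10 genes of the activin and TGF-beta system in the developing mouse cortex, out of 55487 gene identifiers in the deposited tables: the ligand genes Inhba, Inhbb, Tgfb1, Tgfb2 and Tgfb3, the activin antagonist Fst, and the receptor genes Acvr2a, Acvr2b, Acvr1b and Tgfbr1. The 10 were found by symbol, and they were chosen by the counts and TPM of Inhba, which was almost absent from 1 group and higher in the others. The low level of Inhba in that group and its differences between the stages are therefore a description here and carry no test.

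RNA was sequenced from the ventricular zone of the dorsal cortex, the progenitor layer along the lateral ventricle, cut out by laser microdissection. There were 4 groups of 3 libraries: E16.5 p18mKO2+, E16.5 p18mKO2-, E13.5 p18mKO2+ and E13.5 p18mKO2-. By the labels, p18mKO2+ embryos over-express p18, an inhibitor of cyclin-dependent kinases encoded by Cdkn2c, together with the fluorescent protein mKO2, from a ROSA26 cassette that stays silent until Cre removes a loxP-flanked stop. The p18mKO2- embryos are labelled normal, and tamoxifen was injected in all 4 groups. The sources used here name neither the Cre driver, nor the cells it marks, nor the time of injection. Whether replicates are separate embryos is not stated in the labels. The p-values therefore measure only how these libraries spread, and that spread may partly be technical. The series states as its purpose a link between inhibitors of this kind and the switch of progenitors toward astrocytes.

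Activins are dimers of inhibin beta subunits, the beta A chain encoded by Inhba and the beta B chain by Inhbb. Activins and TGF-betas bind a type II receptor, which phosphorylates a type I receptor, which in turn phosphorylates SMAD2 and SMAD3. These enter the nucleus with SMAD4 and act on target genes together with co-repressors such as Ski and SnoN, the product of Skil. Follistatin, from Fst, traps activins outside the cell. TGF-betas are secreted in a latent complex that must be opened before they signal.

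Library totals lay between 17101971 and 21837088 estimated counts. CPM, a count scaled to a fixed library size with TMM factors, is used below for 1 gene across libraries, and TPM, the deposited value corrected for transcript length, for levels of different genes. Cdkn2c was not called by edgeR at either stage: its log2 difference of p18mKO2+ over p18mKO2- was 0.14 at E13.5 (Benjamini-Hochberg adjusted p = 0.798) and 0.32 at E16.5 (adjusted p = 1). The count test of Cdkn2c therefore did not separate the p18mKO2+ and p18mKO2- labels. In TPM its range was 32.1 to 43.5 in E16.5 p18mKO2+ and 13.7 to 28.7 in E16.5 p18mKO2-, and 27.7 to 32.6 in E13.5 p18mKO2+ and 16.1 to 26.5 in E13.5 p18mKO2-. Replicate 3 of E16.5 p18mKO2+ and replicate 3 of E13.5 p18mKO2+ held both Xist and Y-linked transcripts, so these 2 libraries stand apart from the other 10, and called results that lose their call without them are given both ways. The 3 libraries of E13.5 p18mKO2- had Xist at 1937, 1903 and 1921 CPM and Y-linked transcripts at or under 0.415 CPM. In the other groups Y-linked transcripts reached 182 CPM in E16.5 p18mKO2+, 168 CPM in E16.5 p18mKO2- and 178 CPM in E13.5 p18mKO2+. The sex of the samples was therefore not balanced between the groups, and its part in the results was not tested. The ribosomal RNA gene CT010467.1 took between 1.79% and 13.6% of counts.

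The tissue held radial glial and neuronal transcripts in all groups. The 10 radial glial markers summed to 2180 to 2564 TPM in E16.5 p18mKO2+, 1468 to 2436 TPM in E16.5 p18mKO2-, 1973 to 2557 TPM in E13.5 p18mKO2+ and 2631 to 2999 TPM in E13.5 p18mKO2-. The 9 neuron markers summed to 4124 to 4727 TPM in E16.5 p18mKO2+, 3770 to 4323 TPM in E16.5 p18mKO2-, 2706 to 3334 TPM in E13.5 p18mKO2+ and 1169 to 1460 TPM in E13.5 p18mKO2-. The neuron sums were lowest in E13.5 p18mKO2- with no overlap with the other groups, and all 9 neuron markers had counts in every group. In bulk tissue, fewer cells of a type and less RNA per cell cannot be told apart.

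The promoters of the 2 activin subunit genes are shown because Inhba is the gene with the near-absent group and Inhbb, its closest counterpart, is not. RefSeq promoter windows on GRCm38.p6 run from 250 bases before to 50 bases after the gene's start, and 8 of the 10 genes had at least 1 such window. The Inhba window is chr13:16011601-16011900 on the plus strand, with a TATAAA in capitals, and the Inhbb window is chr1:119422199-119422498 on the minus strand, with a GC box in capitals, read as CCGCCC on the strand shown.
Inhba: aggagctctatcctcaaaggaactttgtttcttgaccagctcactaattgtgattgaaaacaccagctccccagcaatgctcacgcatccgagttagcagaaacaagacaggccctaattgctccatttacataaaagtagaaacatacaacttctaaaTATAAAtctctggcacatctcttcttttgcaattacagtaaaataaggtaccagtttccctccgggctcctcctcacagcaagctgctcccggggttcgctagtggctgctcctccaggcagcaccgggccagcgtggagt
Inhbb: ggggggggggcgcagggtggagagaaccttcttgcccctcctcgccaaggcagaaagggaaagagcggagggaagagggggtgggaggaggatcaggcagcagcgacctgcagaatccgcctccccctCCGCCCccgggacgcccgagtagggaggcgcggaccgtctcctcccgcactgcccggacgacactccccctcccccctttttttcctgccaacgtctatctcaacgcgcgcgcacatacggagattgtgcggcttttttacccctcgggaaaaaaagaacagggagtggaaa

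The windows differ in base composition. The Inhba window has a GC content of 47.7% with 7 CpG, against medians of 52.7% and 7 over 32851 mouse promoters. The Inhbb window has a GC content of 64.3% with 23 CpG. Both strands were searched for 4 motifs, the TATA box, the GC box, the SMAD box and the cyclic AMP response element, a choice made after these promoters had been read. The TATA box, searched as TATAAA, is in the Inhba and Tgfb2 windows and in 13.6% of all promoters. In Inhba it begins 91 bases before the start. The GC box, searched as GGGCGG, is in 35.7% of all promoters, in neither the Inhba nor the Tgfb2 window, and in the windows of Inhbb, Tgfb1, Acvr2a, Acvr2b, Acvr1b and Tgfbr1. The SMAD box, searched as CAGACA, is in 21.0% of all promoters, and is in the Tgfb2 window and in a second window of Tgfbr1. The cyclic AMP response element, searched as TGACGTCA, is in 1.79% of all promoters and in none of the 9 windows. The 4 patterns are distinct. The first windows of the 4 receptor genes and that of Tgfb1 have GC contents between 73.3% and 80.3%. A match describes the letters and is no evidence of a factor's binding.

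Inhba, which encodes the chain of activin A, was close to absent in the E13.5 p18mKO2- ventricular zone and present in every other library. Its gene lies on GRCm38 chromosome 13, 16011851 to 16031621, plus strand. The 3 libraries of E16.5 p18mKO2+ had 611, 464 and 472 counts. Those of E16.5 p18mKO2- had 287, 280 and 792 counts, those of E13.5 p18mKO2+ had 87, 125 and 103 counts, and those of E13.5 p18mKO2- had 3, 0 and 0 counts. The 3 lowest libraries are the 3 of E13.5 p18mKO2-, and the E13.5 p18mKO2+ libraries lie between them and all 6 libraries of E16.5. The deposited count of Inhba was whole in all 12 libraries. Of the 2 antisense genes that overlap it, Gm48444 had no count in any library, and B230303A05Rik had 0 to 15 counts, 15 of them in replicate 3 of E13.5 p18mKO2+ and 2 in replicate 1 of E13.5 p18mKO2-, the library with the 3 Inhba counts. Since it is unknown here whether counting used strand, reads of Inhba and of these genes may not be told apart.

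Scaled for depth, the Inhba level was 30.8, 23.0 and 21.7 CPM in E16.5 p18mKO2+, 17.6, 14.2 and 45.9 CPM in E16.5 p18mKO2-, 4.22, 5.71 and 4.40 CPM in E13.5 p18mKO2+, and 0.156, 0 and 0 CPM in E13.5 p18mKO2-. The summed counts of E16.5 p18mKO2+ were 458 times those of E13.5 p18mKO2- after scaling, with a 95% counting interval of 156 to 2222. The ratio was 466 (159 to 2265) for E16.5 p18mKO2- and 87.2 (29.6 to 425) for E13.5 p18mKO2+. The intervals are wide because the denominator is 3 counts in 1 library. They cover counting error only and leave out the spread between libraries. Inhba was chosen for its low level in that group, so the ratios and intervals are a description and no test. The neuron marker sums ranked the groups alike, apart from the order of the 2 groups at E16.5, and their part in the Inhba difference was not tested.

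**Figure D1:**
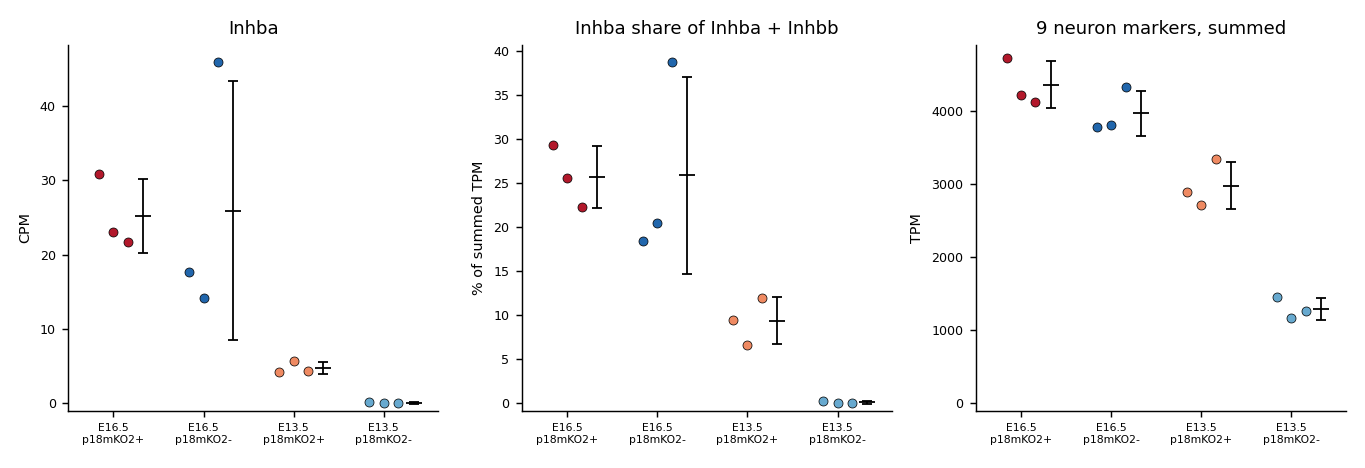
Each panel shows the 3 libraries of a group as points and their mean with SD as a bar, in CPM for Inhba, in percent of the summed TPM for the share of Inhba in Inhba plus Inhbb, and in TPM for the sum of 9 neuron markers. Inhba stays at or under 0.156 CPM in E13.5 p18mKO2- and at or above 4.22 CPM in all other libraries, and the neuron sums of E13.5 p18mKO2- do not exceed 1460 TPM.

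Between the stages in p18mKO2+ cortex, Inhba averaged 25.2 ± 4.88 CPM in E16.5 p18mKO2+ and 4.78 ± 0.817 CPM in E13.5 p18mKO2+ (SD, n = 3 each). The mean at E16.5 was thus 5.26 times that at E13.5, or 2.40 on the log2 scale. The choice of the 10 genes named the higher Inhba level in these groups, so the values describe the libraries and no test is given. Without the 2 libraries of mixed Xist and Y-linked transcripts the log2 value was 2.47, and with the ribosomal RNA share as a covariate it was 2.18.

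At E16.5 no p18 effect on Inhba was detectable. Inhba averaged 25.2 ± 4.88 CPM in the p18mKO2+ libraries, against 25.9 ± 17.4 CPM in the p18mKO2- libraries (SD, n = 3 each), and the groups overlapped. The log2 difference was -0.04 ± 0.40 (edgeR, adjusted p = 1) with a 95% interval of -0.96 to 0.88. Replicate 3 of E16.5 p18mKO2- was the highest library of all 12, and without it the difference was 0.67 (edgeR adjusted p = 1). The sign also turned to 0.04 without replicate 2 of E16.5 p18mKO2+ and to 0.08 without replicate 3. With the ribosomal RNA share as a covariate the difference was -0.55 (edgeR adjusted p = 0.926), and over 11 alternatives it lay between -0.55 and 0.19 (adjusted p between 0.788 and 1).

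Inhbb, which encodes the chain of activin B, was present in every library, with group means between 31.9 and 51.8 CPM. It lies on chromosome 1, 119415465 to 119422248, minus strand. Its level was 48.8, 43.9 and 49.8 CPM in E16.5 p18mKO2+, 57.6, 50.4 and 47.5 CPM in E16.5 p18mKO2-, 43.2, 52.5 and 21.1 CPM in E13.5 p18mKO2+, and 32.0, 30.9 and 32.6 CPM in E13.5 p18mKO2-. The E13.5 p18mKO2+ libraries spread on both sides of the E13.5 p18mKO2- libraries, with replicate 3 the lowest of all 12. In p18mKO2- cortex Inhbb was 1.63-fold higher at E16.5 than at E13.5 (51.8 ± 5.21 against 31.9 ± 0.865 CPM, log2 0.70 ± 0.24, edgeR adjusted p = 0.0418), and the groups did not overlap.

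That call of Inhbb lay close to the threshold. Among the 6 fits that each left out 1 library of the 2 groups, it was kept only without replicate 3 of E16.5 p18mKO2- (edgeR adjusted p = 0.0474). Without replicates 1 and 2 of E16.5 p18mKO2- the adjusted p was 0.117 and 0.0791, and without replicates 1, 2 and 3 of E13.5 p18mKO2- it was 0.0924, 0.103 and 0.0817. For p18 at E13.5 the log2 difference of Inhbb was 0.29 ± 0.24 (edgeR adjusted p = 0.51). It was 0.59 without replicate 3 of E13.5 p18mKO2+ (adjusted p = 0.0469), and 0.59 without both libraries of mixed Xist and Y-linked transcripts (adjusted p = 0.0653).

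The share of Inhba among the 2 activin subunit transcripts followed the level of Inhba. It made up 29.3%, 25.6% and 22.3% of the summed Inhba and Inhbb TPM in E16.5 p18mKO2+, and 18.5%, 20.5% and 38.8% in E16.5 p18mKO2-. Its share was 9.5%, 6.66% and 12% in E13.5 p18mKO2+, and 0.328%, 0% and 0% in E13.5 p18mKO2-. Inhbb thus had the higher TPM in all 12 libraries. TPM rests on the deposited length, which for Inhba varied between 3959.5 and 6390 bases with the transcripts RSEM assigned, so these shares are less certain than the counts.

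The TGF-beta ligands were present at lower levels than Inhbb on the TPM scale, and none of the 3 was called in any comparison. Tgfb2 averaged 13 ± 4.23 TPM in E16.5 p18mKO2+, 8.28 ± 3.37 TPM in E16.5 p18mKO2-, 7.48 ± 1.78 TPM in E13.5 p18mKO2+ and 7.65 ± 3.78 TPM in E13.5 p18mKO2-. Tgfb3 had 5.54 ± 0.517 TPM in E16.5 p18mKO2+, 3.80 ± 1.30 TPM in E16.5 p18mKO2-, 3.65 ± 0.923 TPM in E13.5 p18mKO2+ and 2.68 ± 0.346 TPM in E13.5 p18mKO2-. Tgfb1 had 4.75 ± 0.127 TPM in E16.5 p18mKO2+, 4.12 ± 1.99 TPM in E16.5 p18mKO2-, 3.6 ± 1.66 TPM in E13.5 p18mKO2+ and 4.46 ± 1.53 TPM in E13.5 p18mKO2- (SD, n = 3 each). Tgfb2 was thus the ligand with the highest mean of the 3 in every group.

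The libraries of each TGF-beta ligand gene overlapped between most groups. Tgfb2, on chromosome 1 at 186622792 to 186705989, had 32.8, 41.0 and 24.9 CPM in E16.5 p18mKO2+ and 28.9, 20.8 and 23.0 CPM in E16.5 p18mKO2-. Its p18 difference at E16.5 was 0.44 ± 0.33 on the log2 scale (edgeR adjusted p = 1). Its level in E13.5 p18mKO2+ was 24.0, 25.6 and 13.7 CPM, and the stage difference in p18mKO2+ was 0.64 ± 0.33 (edgeR adjusted p = 0.391). Tgfb3, on chromosome 12 at 86056745 to 86079041, had 9.77, 9.72 and 10.1 CPM in E16.5 p18mKO2+ and 7.22, 8.87 and 4.82 CPM in E13.5 p18mKO2+. These 2 groups did not overlap, and the log2 difference was 0.50 ± 0.28 (edgeR adjusted p = 0.446). In p18mKO2- cortex the stage difference of Tgfb3 was 0.51 ± 0.28 (edgeR adjusted p = 0.20), with overlapping groups. Ttll5 lies over Tgfb3 on the opposite strand, and since it is unknown here whether counting used strand, reads of the 2 genes may not be told apart. Tgfb1, on chromosome 7 at 25687002 to 25705077, differed by -0.64 ± 0.41 for p18 at E13.5 (edgeR adjusted p = 0.36), with values of 2.38, 4.80 and 2.69 CPM in p18mKO2+ and 6.90, 3.64 and 4.80 CPM in p18mKO2-.

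Fst, which encodes the activin trap follistatin, was low in all groups and varied between replicates. It lies on chromosome 13 at 114452290 to 114458951, minus strand. Its level was 3.52, 4.91 and 2.12 CPM in E16.5 p18mKO2+, 4.24, 2.09 and 3.30 CPM in E16.5 p18mKO2-, 6.45, 4.16 and 11.7 CPM in E13.5 p18mKO2+, and 3.79, 1.36 and 4.62 CPM in E13.5 p18mKO2-. Replicate 3 of E13.5 p18mKO2+ was the highest of the 12 libraries, and the E13.5 groups overlapped. The p18 difference at E13.5 was 1.19 ± 0.51 (2.28-fold, edgeR adjusted p = 0.159). It was 0.70 without replicate 3 of E13.5 p18mKO2+ and likewise 0.70 without both libraries of mixed Xist and Y-linked transcripts (adjusted p = 0.505 in this second fit). The stage difference in p18mKO2+ was -1.08 ± 0.51 (edgeR adjusted p = 0.343), and -0.30 without the 2 mixed libraries.

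The receptors Tgfbr1, Acvr1b and Acvr2a had the highest group means of the 10 genes on the TPM scale, and Tgfbr1 was the highest in every group. Tgfbr1, the type I receptor of TGF-beta, averaged 53.2 ± 5.96 TPM in E16.5 p18mKO2+, 43.5 ± 7.35 TPM in E16.5 p18mKO2-, 44.2 ± 4.36 TPM in E13.5 p18mKO2+ and 37.8 ± 4.55 TPM in E13.5 p18mKO2- (SD, n = 3 each). It lies on chromosome 4 at 47353222 to 47414931. Its libraries overlapped in each of the comparisons, and its log2 differences ranged from 0.01 to 0.20 over the 2 p18 and 2 stage comparisons.

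Acvr1b, the type I receptor of activin, had the smallest SE of a log2 difference among the members, 0.15. Its gene lies on chromosome 15 at 101174067 to 101213684. Acvr1b had 110, 102 and 106 CPM in E16.5 p18mKO2+, 114, 76.7 and 98.2 CPM in E16.5 p18mKO2-, 82.4, 86.4 and 93.3 CPM in E13.5 p18mKO2+, and 70.1, 57.9 and 71.4 CPM in E13.5 p18mKO2-. All 3 libraries of E13.5 p18mKO2- lie below the other 9. In p18mKO2- cortex Acvr1b was 1.45-fold higher at E16.5 than at E13.5 (96.2 ± 18.5 against 66.5 ± 7.46 CPM, log2 0.53 ± 0.15, edgeR adjusted p = 0.014). The call was lost without replicate 1 of E16.5 p18mKO2- (log2 0.40, adjusted p = 0.0652) and without replicate 2 of E13.5 p18mKO2- (log2 0.44, adjusted p = 0.0649). For p18 at E13.5 the log2 difference was 0.39 ± 0.15 (edgeR adjusted p = 0.106), with 87.3 ± 5.50 CPM in p18mKO2+ and 66.5 ± 7.46 CPM in p18mKO2-. For the stages in p18mKO2+ it was 0.28 ± 0.15 (edgeR adjusted p = 0.408), again without overlap.

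The 2 type II receptors did not follow each other. Acvr2a, on chromosome 2 at 48814109 to 48903269, had 76.4, 88.6 and 88.9 CPM in E16.5 p18mKO2+, 94.2, 96.1 and 118 CPM in E16.5 p18mKO2-, 87.5, 79.8 and 151 CPM in E13.5 p18mKO2+, and 98.3, 80.7 and 83.6 CPM in E13.5 p18mKO2-. At E16.5 the p18 groups did not overlap in CPM, and the log2 difference was -0.28 ± 0.21 (edgeR adjusted p = 1). In TPM these groups overlapped, at 28.8 ± 2.12 in p18mKO2+ and 28.8 ± 2.02 in p18mKO2- (SD, n = 3 each). With the ribosomal RNA covariate the log2 difference was -0.92 (edgeR adjusted p = 0.889). Over 11 alternatives it lay between -0.92 and -0.0, and none called it (adjusted p between 0.889 and 1). At E13.5 the difference was 0.28 ± 0.21 (edgeR adjusted p = 0.441), and -0.07 without replicate 3 of E13.5 p18mKO2+, the highest of the 12 libraries. Orc4 lies over Acvr2a on the opposite strand. Since it is unknown here whether counting used strand, reads of these 2 genes may not be told apart.

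Acvr2b fell between the stages in p18mKO2- cortex. Its gene lies on chromosome 9 at 119402118 to 119434995. Acvr2b had 15.0, 14.1 and 10.6 CPM in E16.5 p18mKO2+, 20.8, 8.65 and 7.19 CPM in E16.5 p18mKO2-, 19.8, 15.5 and 25.8 CPM in E13.5 p18mKO2+, and 26.6, 29.3 and 20.4 CPM in E13.5 p18mKO2-. In p18mKO2- it averaged 12.2 ± 7.45 CPM at E16.5 and 25.4 ± 4.59 CPM at E13.5 (log2 -1.06 ± 0.34, edgeR adjusted p = 0.0299), and replicate 1 of E16.5 reached into the E13.5 range. The call was lost without replicate 2 or 3 of E16.5 p18mKO2- (adjusted p = 0.119 and 0.104) and without replicate 1 or 2 of E13.5 p18mKO2- (adjusted p = 0.0822 and 0.0911). Without replicate 1 of E16.5 p18mKO2- the log2 difference was -1.68. In p18mKO2+ the stage difference was -0.63 ± 0.34 (edgeR adjusted p = 0.43) without overlap, and -0.25 without the 2 libraries of mixed Xist and Y-linked transcripts. The difference between the 2 stage changes, which equals the difference between the p18 effects, was 0.44 ± 0.48 (edgeR adjusted p = 0.734).

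**Figure D2:**
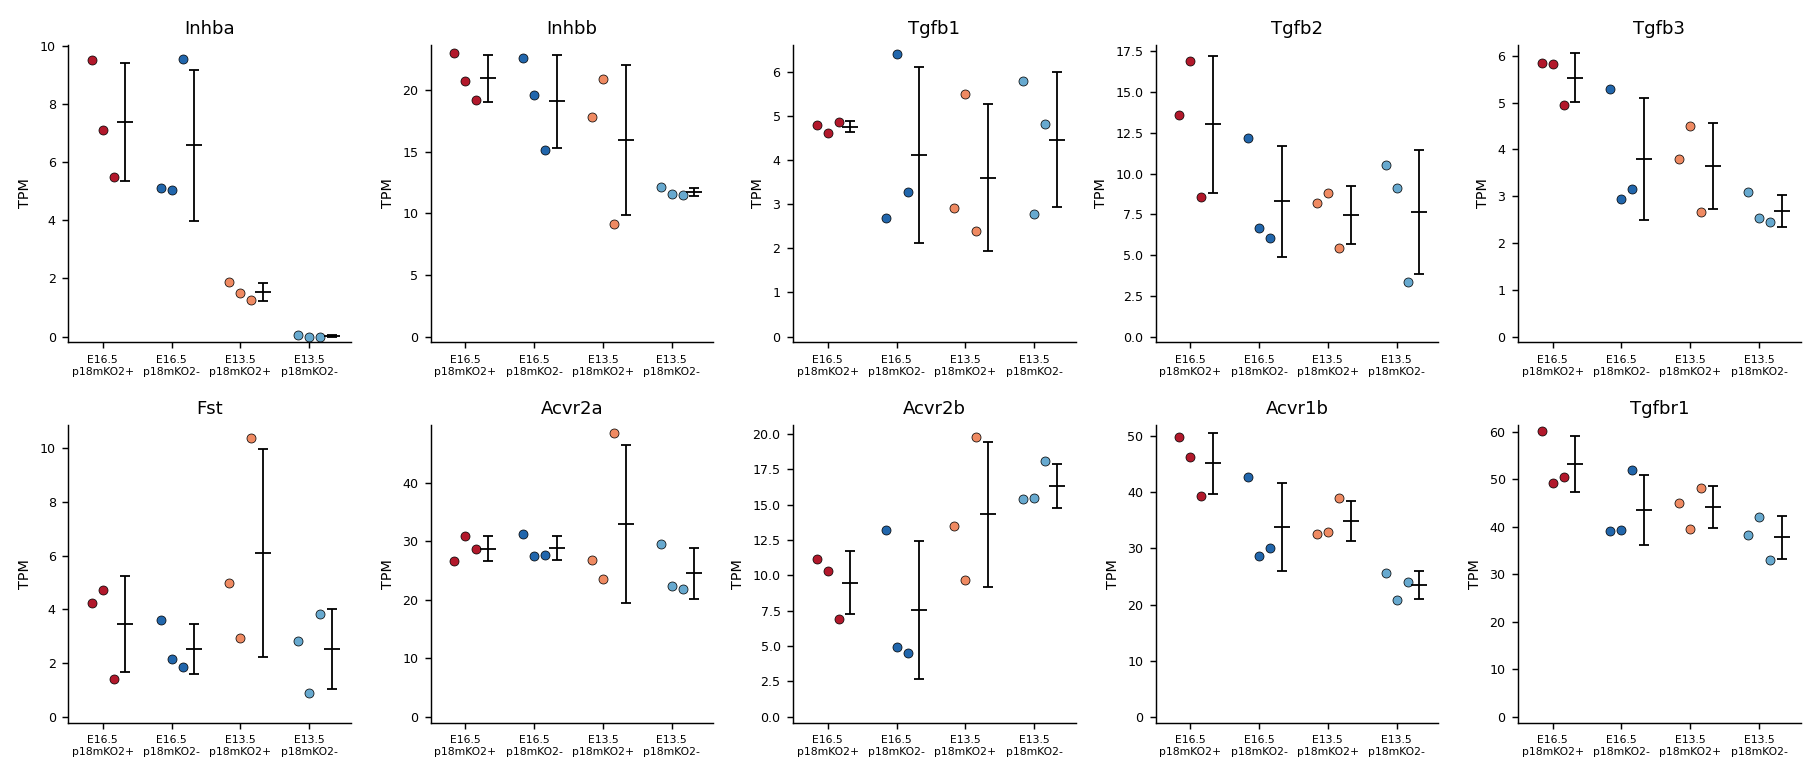
TPM of the 10 genes in each library (points) with the group mean and SD (bars), 3 libraries per group. Inhba is the gene with a group near 0. Inhbb, Tgfb3, Fst, Acvr2a, Acvr1b and Tgfbr1 are also lowest on average in E13.5 p18mKO2-, and Acvr2b is highest there on average. For Fst the mean there is 2.52 TPM, against 2.54 TPM in E16.5 p18mKO2-. In CPM the lowest mean is in E16.5 p18mKO2- for Fst and in E16.5 p18mKO2+ for Acvr2a.

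Counted over the comparisons, the members other than Inhba were called only for stage in p18mKO2- cortex. In that comparison 3 of 9 were called by edgeR, Inhbb and Acvr1b higher and Acvr2b lower at E16.5, where 29.8% of all 16798 tested genes were called (16.4% higher and 13.4% lower), so their share was near the background. The groups did not overlap for 2 of the 9, Inhbb and Acvr1b, where 40.4% of all genes did not overlap. Of the 3, Acvr2b alone was called on the log2 TPM scales and Acvr1b alone with the ribosomal RNA covariate. The median log2 difference of the 9 was 0.20, against -0.02 over all genes. For p18 at E13.5, 0 of 9 were called by edgeR, where 10.8% of all genes were called (7.29% higher and 3.49% lower). Fst and Acvr1b were the 2 with an unadjusted p under 0.05, and DESeq2 and limma-voom called 0. The median log2 difference was 0.28, against 0.01 over all genes. The groups did not overlap for 1 of the 9, Acvr1b, where 30.7% of all genes did not overlap.

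At E16.5, 0 of 9 members and 0.0% of all genes were called for p18 by edgeR. No member had an unadjusted p under 0.05, DESeq2 and limma-voom called 0, and the median log2 difference was 0.13, against -0.01 over all genes. The groups did not overlap in CPM for 1 of the 9, Acvr2a, where 7.95% of all genes did not overlap. Between the stages in p18mKO2+ cortex edgeR called 0 of the 9, where 1.64% of all genes were called (1.08% higher and 0.554% lower). None of the 9 had an unadjusted p under 0.05, and DESeq2 and limma-voom called 0 of them. The median of the 9 was 0.28, against -0.03 over all genes. The groups did not overlap for Tgfb3, Acvr2b and Acvr1b, 3 of the 9, where 26.6% of all genes did not overlap. For the difference between the p18 effects, E16.5 minus E13.5, 0 of 9 were called by edgeR, DESeq2 or limma-voom, where edgeR called 2.7% of all genes (0.298% higher and 2.4% lower). None had an unadjusted p under 0.05, and the log2 values lay between -1.05 for Fst and 0.82 for Tgfb1. The comparisons share libraries, so their counts are not independent.

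The rest of the pathway was followed in 6 lists of 64 genes: other ligands, other receptors, extracellular inhibitors and co-receptors, genes of latency and activation, SMADs and their regulators, and known targets. Of these, 61 had a count in some library and 50 were tested. The 3 genes with no count in any library were Inhbc, Inhbe and Cfc1. For a single library, 0 counts still allow an expected count of up to about 3 at 95% confidence. The ligand Nodal, the classical partner of these receptors in the early embryo, had at most 5 counts in a library.

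For p18 at E13.5, 5 of the 50 tested pathway genes were called, 1 higher and 4 lower, against 10.8% of all genes, 7.29% higher and 3.49% lower. The median log2 difference of the 50 was -0.01, against 0.01 over all genes. Skil, a SMAD co-repressor that TGF-beta signalling itself induces, had 69.8, 63.0 and 65.9 CPM in E13.5 p18mKO2+ and 45.1, 42.2 and 34.0 CPM in E13.5 p18mKO2- (log2 0.71 ± 0.14, edgeR adjusted p = 0.00679). Fn1, the matrix protein fibronectin, was lower at 115, 108 and 108 CPM in p18mKO2+ against 275, 260 and 202 CPM in p18mKO2- (log2 -1.16 ± 0.22, edgeR adjusted p = 0.00477). Both called targets had groups without overlap and kept their call in all 6 fits that left out 1 library. On the log2 TPM scales and with the ribosomal RNA covariate Fn1 kept its call, and Skil did not (adjusted p up to 0.0621 over 11 alternatives). Their directions were opposite, and the remaining 11 tested targets were not called.

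The 2 called genes of the SMAD list were both lower in E13.5 p18mKO2+. Smad3, the receptor-activated transcription factor of the pathway, had 32.5, 31.5 and 31.8 CPM in p18mKO2+ and 61.5, 73.7 and 51.4 CPM in p18mKO2- (log2 -0.96 ± 0.26, edgeR adjusted p = 0.0283). Tgif1, a homeodomain co-repressor of SMADs, had 13.7, 12.9 and 11.8 CPM in p18mKO2+ and 27.6, 32.9 and 27.7 CPM in p18mKO2- (log2 -1.20 ± 0.32, edgeR adjusted p = 0.0286). Neither pair of groups overlapped. The fits without 1 library kept the call of Smad3 only without replicate 3 of E13.5 p18mKO2-, with adjusted p between 0.0344 and 0.107 over the 6, and that of Tgif1 in none, with adjusted p between 0.0573 and 0.105. Without the 2 libraries of mixed Xist and Y-linked transcripts, adjusted p was 0.0578 for Smad3 and 0.116 for Tgif1 at log2 differences of -0.96 and -1.15. Both calls were also lost on the log2 TPM scales and with the ribosomal RNA covariate, with adjusted p up to 0.167 for Smad3 and 0.187 for Tgif1 over 11 alternatives.

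In the latency list Ltbp1, which tethers latent TGF-beta to the matrix, was the 1 gene called of 12 tested. It had 26.6, 24.4 and 12.6 CPM in E13.5 p18mKO2+ and 83.7, 57.4 and 24.1 CPM in E13.5 p18mKO2- (log2 -1.38 ± 0.41, edgeR adjusted p = 0.0443). The groups overlapped at replicate 3 of p18mKO2-, and the call was kept only without that library (edgeR adjusted p between 0.0111 and 0.18 over the 6 fits, log2 between -1.73 and -0.95). Without the 2 libraries of mixed Xist and Y-linked transcripts the log2 difference was -1.11 (edgeR adjusted p = 0.179). Of 11 alternatives 5 called Ltbp1, and the call was also lost with limma-voom, with only the groups compared, on both log2 TPM scales and with the ribosomal RNA covariate (log2 between -1.39 and -0.92, adjusted p up to 0.294). The lists of other ligands, other receptors and extracellular inhibitors had no call by edgeR in this comparison. In the same comparison 4 of 10 radial glial markers were called lower, none was called higher and 6 were not called, and 8 of 9 neuron markers were called higher. Over all genes 3.49% were called lower and 7.29% higher. The part of these markers in the differences was not tested.

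Between the stages in p18mKO2- cortex, 19 of the 50 pathway genes were called, 9 higher and 10 lower at E16.5, against 29.8% of all genes. The median log2 difference of the 50 was 0.04, against -0.02 over all genes. Of the 6 other receptors 2 were higher. Acvr1, a type I receptor shared with BMP ligands, averaged 66.2 ± 18.6 CPM at E16.5 and 28.3 ± 5.03 CPM at E13.5 (log2 1.23 ± 0.21, edgeR adjusted p = 0.000731). Acvr1c, the receptor ALK7 of Nodal and activin B, averaged 6.85 ± 3.11 CPM at E16.5 and 1.72 ± 0.438 CPM at E13.5 (log2 1.99 ± 0.45, adjusted p = 0.00397). Both kept their call in all 6 fits without 1 library. The extracellular list had Cd109, a TGF-beta co-receptor, lower at 1.63 ± 1.58 CPM against 6.64 ± 2.97 CPM (log2 -2.03 ± 0.61, edgeR adjusted p = 0.0228) and Wfikkn1, a binding protein of myostatin and GDF11, lower at -2.88 ± 1.02 (adjusted p = 0.0479). Wfikkn1 averaged only 0.141 CPM at E16.5 and 1.05 CPM at E13.5. Leaving out replicate 2 of either group ended the call of Cd109 (adjusted p = 0.0814 without E16.5 and 0.095 without E13.5). Cd109 also lost its call with only the groups compared (adjusted p = 0.0767). The call of Wfikkn1 was lost without replicate 2 or 3 of either group, with adjusted p up to 0.168. Without the 2 libraries of mixed Xist and Y-linked transcripts Wfikkn1 was at -2.85 (edgeR adjusted p = 0.0818). Of 10 alternatives 5 called it, and limma-voom, the fit without a filter and the fit to only the groups compared did not (log2 between -3.15 and -0.64, adjusted p between 0.0135 and 0.149).

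In the latency list 1 gene was higher and 2 were lower of 12 tested at E16.5 in p18mKO2-, where 16.4% of all genes were called higher and 13.4% lower. Thbs1, whose product thrombospondin can activate latent TGF-beta, averaged 29.4 ± 8.25 CPM at E16.5 and 11.4 ± 2.85 CPM at E13.5 (log2 1.36 ± 0.30, edgeR adjusted p = 0.00373). Ltbp4 averaged 22.8 ± 12.6 CPM at E16.5 and 55.3 ± 4.40 CPM at E13.5 (log2 -1.28 ± 0.30, adjusted p = 0.00602), and Ltbp1 was lower at -1.24 ± 0.40 (adjusted p = 0.0331). Thbs1 and Ltbp4 kept their call in all 6 fits without 1 library, while Ltbp1 lost it without replicate 2 or 3 of E16.5 p18mKO2- (adjusted p = 0.106 and 0.108) and without replicate 1 or 2 of E13.5 p18mKO2- (log2 -0.78 and -1.20, adjusted p = 0.191 and 0.0742). Of 11 alternatives 6 called Ltbp1 here, and limma-voom, the fit to only the groups compared, both log2 TPM scales and the ribosomal RNA covariate did not (edgeR or limma adjusted p up to 0.134).

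The SMAD list had 4 genes higher and 3 lower of 12 tested at E16.5 in p18mKO2-, where 16.4% of all genes were called higher and 13.4% lower. Tgif1 had 7.80, 4.02 and 2.55 CPM at E16.5 and 27.6, 32.9 and 27.7 CPM at E13.5 (log2 -2.62 ± 0.34, edgeR adjusted p = 7.47e-05). Smad3 was lower at -1.33 ± 0.26 (adjusted p = 0.0016). Ski, a co-repressor, was higher at 0.57 ± 0.14 (adjusted p = 0.00583), and Smurf1, a ubiquitin ligase that turns over SMADs and receptors, at 0.66 ± 0.16 (adjusted p = 0.00585). Of the 13 targets tested 2 were higher and 3 lower. Skil rose by 0.91 ± 0.14 (adjusted p = 0.000325) and Pmepa1, a target that restrains SMAD signalling, by 0.97 ± 0.19 (adjusted p = 0.00137). Fn1 was lower at -1.21 ± 0.22 (adjusted p = 0.000907) and the cell-cycle inhibitor gene Cdkn1a at -1.66 ± 0.33 (adjusted p = 0.0018). These 8 genes kept their call in all 6 fits without 1 library, while Smurf1 and Pmepa1, like Ltbp4, lost it on the log2 TPM scales (adjusted p up to 0.18 for Smurf1 and 0.121 for Pmepa1 over 11 alternatives). In the same comparison all 9 neuron markers were called higher, and of 10 radial glial markers 8 were called lower and 1 higher. These counts stand against 16.4% of all genes called higher and 13.4% called lower. The part of these markers was not tested.

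**Figure D3:**
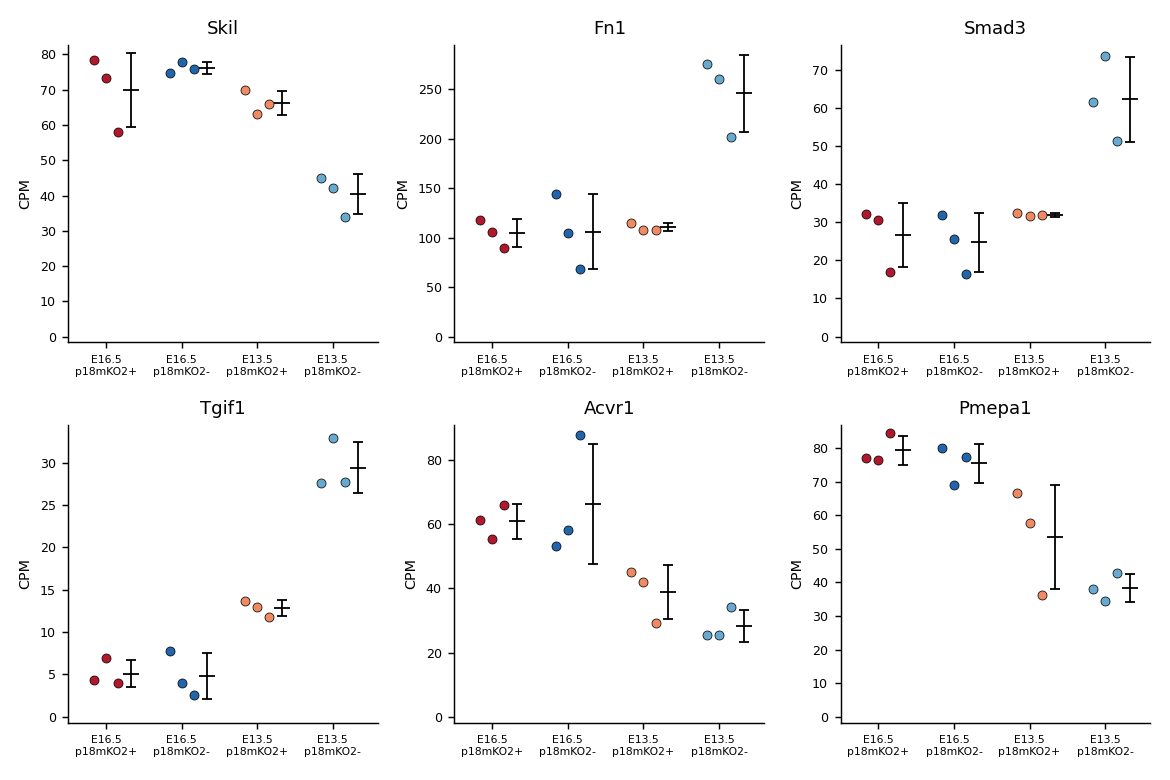
CPM of 6 pathway genes in each library (points), with the group mean and SD (bars), 3 libraries per group. Skil is lowest and Fn1, Smad3 and Tgif1 are highest in E13.5 p18mKO2- with no overlap with the other groups; Acvr1 and Pmepa1 are higher in both E16.5 groups than in E13.5 p18mKO2-.

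For p18 at E16.5 no pathway gene of the 50 was called by edgeR, DESeq2 or limma-voom, against 0.0% of all genes by edgeR, and none had an unadjusted p under 0.05. Between the stages in p18mKO2+ cortex edgeR called 0 of 50, against 1.64% of all genes, with 11 at an unadjusted p under 0.05, while DESeq2 called 3 and limma-voom 1. Skil was the 1 pathway gene of 50 whose p18 effect differed between the stages by edgeR, against 2.7% of all genes. The effect at E16.5 minus that at E13.5 was -0.83 ± 0.20 on the log2 scale (edgeR adjusted p = 0.0431), with 78.3, 73.4 and 58.1 CPM in E16.5 p18mKO2+ and 74.7, 78.0 and 75.9 CPM in E16.5 p18mKO2-. None of the 12 fits without 1 library kept that call (log2 between -0.93 and -0.70, adjusted p between 0.055 and 0.131). Without the 2 libraries of mixed Xist and Y-linked transcripts the difference was -0.71 (edgeR adjusted p = 0.181), and over 10 alternatives the adjusted p lay between 0.00575 and 0.445.

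The genes whose levels over the 12 libraries were most like those of Inhba were sought among 10903 tested genes with a mean of at least 5 TPM in their highest group. Pearson's r of log2 CPM was 0.994 for Rbfox1, a neuronal splicing regulator, 0.988 for Hs3st4, a heparan sulfate sulfotransferase, 0.988 for Opcml, a neuronal adhesion molecule, 0.986 for Nol4 and 0.986 for Phactr1, a regulator of actin and protein phosphatase 1. Rbfox1 averaged 123 ± 12 CPM in E16.5 p18mKO2+, 134 ± 30.0 CPM in E16.5 p18mKO2-, 49.5 ± 6.75 CPM in E13.5 p18mKO2+ and 8.88 ± 3.03 CPM in E13.5 p18mKO2- (SD, n = 3 each). All 5 were highest at E16.5 and lowest in E13.5 p18mKO2-, but none was as close to 0 there as Inhba. Hs3st4 came nearest, with 2.80, 0.814 and 1.35 CPM. The libraries share stage, dissection and depth, so r describes these 12 libraries alone. The ranking depends on the scale: none of the 5 was among the 5 most alike genes on a log2 TPM scale, between 1 and 4 of them were when 1 library was left out, and 1 was without the 2 libraries of mixed Xist and Y-linked transcripts.

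**Figure D4:**
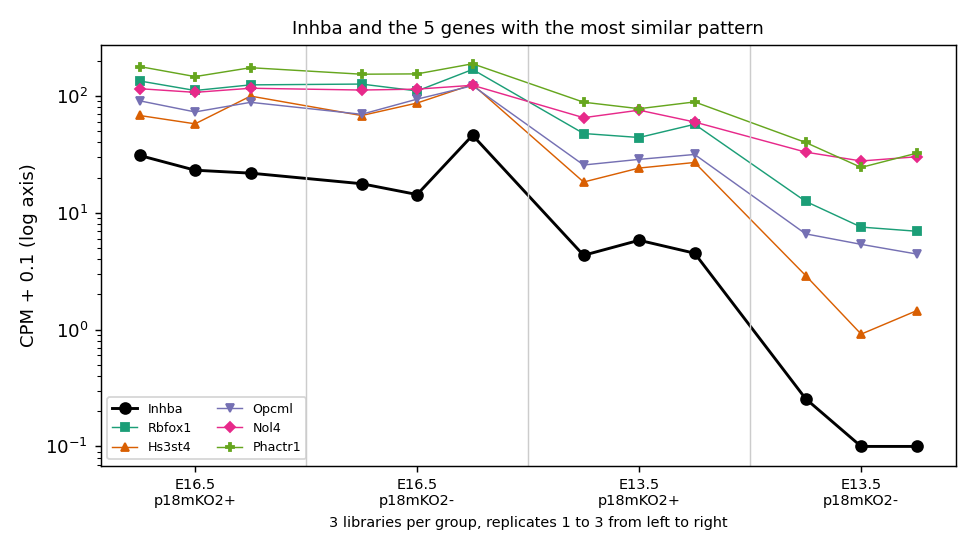
CPM + 0.1 on a log axis for Inhba (black) and the 5 genes with the most similar pattern in each of the 12 libraries; lines join the points of a gene to guide the eye and mark no order of replicates. All 6 genes are lowest in the E13.5 p18mKO2- libraries, where Inhba has 0.156, 0 and 0 CPM.

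Among the other 9 members the pattern nearest to that of Inhba over the 12 libraries was that of Acvr1b, its type I receptor (r = 0.87), followed by Tgfb3 (r = 0.69) and Inhbb (r = 0.63). Acvr2b ran in the opposite direction (r = -0.72), and Tgfb1 was weakly opposite (r = -0.28). The values for Tgfbr1, Tgfb2, Acvr2a and Fst lay between 0.12 and 0.41. The spread of r over all genes is not given here, and r also carries the group differences that the libraries share. These values therefore describe the libraries and set no member apart from other genes.

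In order of group means in CPM, most members had neighbouring groups that overlapped. Besides Inhba, which separates into E16.5, E13.5 p18mKO2+ and E13.5 p18mKO2-, neighbours in that order were apart only for Acvr2b, between E16.5 p18mKO2+ at 13.2 CPM and E13.5 p18mKO2+ at 20.4 CPM, and for Acvr1b, between E13.5 p18mKO2+ at 87.3 CPM and E13.5 p18mKO2- at 66.5 CPM. For Tgfb1, Tgfb2, Tgfb3, Fst, Acvr2a, Tgfbr1 and Inhbb every neighbouring pair of groups overlapped.

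Markers of other cell types the dissection could hold were present at low or variable levels. The 8 microglial markers, a cell type in which Tgfb1 and its receptor are prominent, summed to 47.9 to 55.1 TPM in E16.5 p18mKO2+, 30.5 to 71.7 TPM in E16.5 p18mKO2-, 37.4 to 40.4 TPM in E13.5 p18mKO2+ and 34.3 to 45.6 TPM in E13.5 p18mKO2-. All 8 had counts in every group, and Tgfb1 was not called in any comparison. The 7 pericyte markers summed to 80.7 to 113 TPM in E16.5 p18mKO2+, 69.9 to 91.0 TPM in E16.5 p18mKO2-, 65.5 to 84.8 TPM in E13.5 p18mKO2+ and 41.6 to 60.5 TPM in E13.5 p18mKO2-. Among them Rgs5 had 34.0 to 57.7 TPM in E16.5 p18mKO2+, 37.3 to 45.4 TPM in E16.5 p18mKO2-, 26.2 to 32.3 TPM in E13.5 p18mKO2+ and 10.0 to 13.7 TPM in E13.5 p18mKO2-. Of the 7, 1 was called higher for p18 at E13.5, and for stage in p18mKO2- 4 were called higher and 1 lower. Over all genes 7.29% were called higher for p18 at E13.5, and 16.4% higher and 13.4% lower for stage in p18mKO2-. Notch3 ran the other way between the stages, with 7.38 to 10.4 TPM in E16.5 p18mKO2+, 2.41 to 7.58 TPM in E16.5 p18mKO2-, 14.1 to 22.3 TPM in E13.5 p18mKO2+ and 15.8 to 18.4 TPM in E13.5 p18mKO2-. The 7 endothelial markers lay between 43.1 and 88.5 TPM and the 8 meningeal markers between 19.1 and 84.0 TPM over all libraries. The 6 erythroid markers summed to 1652 to 1919 TPM in E16.5 p18mKO2+, 905 to 1741 TPM in E16.5 p18mKO2-, 1543 to 2952 TPM in E13.5 p18mKO2+ and 3935 to 4329 TPM in E13.5 p18mKO2-, highest without overlap in the group where Inhba was lowest. The 5 markers of hem and choroid plexus ranged from 20.9 to 2655 TPM, with Wnt8b and Wnt3a at 0 in E16.5 p18mKO2-. The 6 markers of the ventral telencephalon summed to 192 to 349 TPM in E16.5 p18mKO2+ and 87.7 to 102 TPM in E16.5 p18mKO2-. At E13.5 they summed to 287 to 407 TPM in p18mKO2+ and 79.5 to 221 TPM in p18mKO2-. These sums were thus higher in p18mKO2+ at each stage without overlap. For p18, edgeR called 1 of the 6 higher at E13.5 and 0 at E16.5, against 7.29% and 0.0% of all genes. The part of all these cell types in the results was not tested.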

How the data were processed

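Laser-dissected ventricular zone was profiled in 12 libraries, 3 in each of 4 groups. cutadapt 3.4, STAR 2.7.2b, RSEM 1.2.31 and GRCm38 are listed in the submitters' processing notes. Per the labels' protocols the RNA was polyadenylated and the kit directional. The sources used here give no strand setting or annotation release. Expected counts and TPM were deposited by the authors for each gene, per the file headers. Gene positions come from GENCODE vM21.

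Expected counts were rounded and tested with edgeR 4.0.16 (R 4.3.3): TMM, filterByExpr (16798 genes), quasi-likelihood fit over all 12 libraries with 1 mean per group, 8 residual degrees of freedom, Benjamini-Hochberg adjusted p under 0.05. SE is the absolute log2 fold change over the square root of F. log2 CPM uses a prior count of 2. Scripts were tested on simulated counts. Alternatives were RLE, DESeq2 1.42.0, limma 3.58.1 (voom, and log2 TPM with a pseudocount of 0.1 or 1), other filters, a replicate block, leaving out each library, and only the groups compared. A ribosomal RNA covariate and a fit without 2 mixed libraries were chosen after seeing the data. Named genes are the 10 members, up to 4 called genes per list and comparison with the smallest p, and the 5 most like Inhba. The members and lists were chosen with earlier results of these data known, so the planned stage test of Inhba in p18mKO2+ is not reported. Figures used matplotlib 3.10.9.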

Additional observations from a re-analysis of the deposited data

Results flagged for a closer look

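The p18 effect on Skil, a SMAD co-repressor, differed between the stages in a test of the difference itself. It was -0.83 ± 0.20 on the log2 scale (E16.5 minus E13.5, edgeR's quasi-likelihood test, Benjamini-Hochberg adjusted p = 0.0431). At E13.5 all 3 p18mKO2+ libraries exceeded all 3 p18mKO2- libraries, and at E16.5 the groups overlapped. The call was lost in each of the 12 fits that left out 1 library, in both TPM fits and without the 2 libraries of mixed Xist and Y-linked transcripts.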

How the results depend on the processing

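Members called for stage in p18mKO2- numbered 3, but 1 with only the libraries of the groups compared, 1 on log2(TPM + 0.1), 1 on log2(TPM + 1) and 1 with the ribosomal RNA covariate. For stage in p18mKO2+ the fit's count over all 10 members was 1, which is Inhba and not read as a test, and it was 0 without the 2 mixed libraries and 0 with that covariate. Pathway genes called for p18 at E13.5 numbered 5, but 2 in each TPM fit, 3 without the mixed libraries and 1 with the covariate; for stage in p18mKO2- 19, but 12 in each TPM fit; for stage in p18mKO2+ 0, but 3 with DESeq2, 1 with limma-voom, 5 without a filter, and 1 with only the groups compared; and for the difference between p18 effects 1, but 2 with DESeq2, 5 without a filter, 2 at a mean CPM of at least 5, 0 in each TPM fit and 0 without the mixed libraries. The cause was not tested. The sign of Acvr2a for p18 at E13.5 turned to -0.07 without the mixed libraries and -0.02 with the covariate. The sign of Inhba for p18 at E16.5 turned to 0.15 with limma-voom, 0.19 and 0.17 in the TPM fits and 0.08 without the mixed libraries, and was -0.55 with the covariate. Acvr2a for p18 at E16.5 was -0.92 with the covariate, against -0.28 (edgeR adjusted p = 0.889 and 1), and the other end of its range over 11 alternatives was -0.0.

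Leaving out 1 library gave 0 to 1 members called for p18 at E13.5, 0 at E16.5, 0 to 2 for stage in p18mKO2-, 0 to 1 in p18mKO2+ and 0 for the difference. For pathway genes the ranges were 2 to 4, 0, 15 to 19, 0, and 0 to 2. The Inhba ratios over E13.5 p18mKO2- ran from 297 to 490 for E16.5 p18mKO2+, 288 to 587 for E16.5 p18mKO2- and 56.6 to 91.9 for E13.5 p18mKO2+. Without replicate 1 of E13.5 p18mKO2- that group held no Inhba count, so the true ratio is undefined. A floor of 3 counts stood in as the denominator there, and these ranges include the ratios so obtained. For Acvr2a at E13.5 the log2 range was -0.07 to 0.45, and for Inhba at E16.5 -0.34 to 0.67.

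The replicate number as a block left the counts of members called as they were. It gave 4 pathway genes for stage in p18mKO2+ and 3 for the difference, Inhba for p18 at E16.5 was 0.06, and Wfikkn1 for stage in p18mKO2- was -2.99 without a call (edgeR adjusted p = 0.053). The deviations of libraries with the same number had correlations between -0.069 and 0.205. Of 12 libraries 6 correlated best with their own number. The labels do not say what the numbers mean, and these values cannot decide whether the numbers pair the libraries. The mean CPM filter removed Fst and Tgfb1. Fst, Tgfb1 and the E13.5 p18mKO2- level of Inhba rest on few counts, which limits their precision.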
